A study of Homo sapiens with 6 samples.

Results

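Brpf2, also called BRD1, was mapped by chromatin immunoprecipitation and sequencing (ChIP-seq) in RKO, an established human colon carcinoma line grown under normal conditions without treatment. The regions described here are all peaks that the deposited Brpf2 list places on chromosome 16. No score or width entered that rule, but the chromosome was picked with earlier results of these data known. They number 551 of 11874 peaks in the list, and the other 21 autosomes hold 10962. The series has 6 samples of untreated RKO cells, 1 for each target. Beside Brpf2 these are ING2, ING5, the histone mark H3K4me3, total H3 and a rabbit IgG control, and only the Brpf2 sample was analysed here. With 1 library there is no replicate and no p-value. The intervals below are 95% intervals that cover counting error, or the sampling of peaks for a median, within this library, and they are too narrow where neighbouring peaks depend on each other.

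Brpf2 is a scaffold protein that ties a MYST-family histone acetyltransferase to its partner subunits, among them an ING protein and MEAF6. It carries PHD fingers, a bromodomain and a PWWP domain, modules known to bind histone tails, acetylated lysines and methylated histone H3 or DNA. Complexes of this kind acetylate histone H3 and are known to occupy the promoters and bodies of active genes. Chromosome 16 is a gene-rich chromosome. The tip of its short arm, which carries the alpha-globin genes, is known to be crowded with genes, its proximal short arm holds many duplicated segments, and a large block of heterochromatin lies at the top of its long arm. Sequences of the peaks are not shown, because no genome of the build used for the peak list (hg18) was used here, and for the same reason no peak is assigned to a gene.

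With each chromosome measured from position 1 to the end of its last peak, chromosome 16 had the third highest density of Brpf2 peaks among the 22 autosomes. It held 6.22 peaks per Mb (5.71 to 6.76), with the end of its last peak at 88.6 Mb taken as its length, against 3.95 per Mb (3.88 to 4.03) over the other autosomes. The ratio was 1.57 (exact conditional interval 1.44 to 1.71). Chromosomes 19 and 17 were denser, with 12.8 and 9.42 peaks per Mb, and the ratios of chromosome 16 to them were 0.48 (0.43 to 0.54) and 0.66 (0.59 to 0.74). The density of chromosome 22, 5.93 per Mb, could not be told from that of chromosome 16 by this length (ratio 1.05, 0.91 to 1.21). That length includes the stretch before the first peak. From first to last peak, chromosome 22 had 294 peaks in 36 windows of 1 Mb, with a median of 8 per window. Chromosome 16 had 551 in 89 windows, with a median of 4. Over that span chromosome 22 was the denser, so the rank of chromosome 16 depends on the length taken. Peaks covered 1458 kb of chromosome 16, or 1.65% of its length, against 1.03% of the other autosomes. Set against the 854 protein-coding genes that RefSeq lists for chromosome 16 in GRCh38.p14, there were 64.5 peaks per 100 genes (59.2 to 70.1). Among the other autosomes this number ran from 46.0 on chromosome 21 to 67.5 on chromosome 9, so that by genes chromosome 16 had rank 6 of 22.

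Chromosome 16 had a smaller share of peaks under 2 kb than the other autosomes, without more of the very wide or very high-scoring ones. The median width was 2463 bp (2346 to 2568), against 2349 bp (2324 to 2368) on the other autosomes (quartiles 1843.5 and 3224.5 bp on chromosome 16). Widths ran from 613 to 9731 bp. Peaks under 2 kb made up 28.7% of those on chromosome 16 and 35.8% elsewhere (odds ratio 0.72, 0.59 to 0.88). The median score, a value that the authors' caller gave to each peak, was 720 (640 to 817) against 624 (606 to 644). Scores in the list pile up at 3100, a ceiling that 46 peaks of chromosome 16 reached or passed. These were 8.35% (6.18 to 10.98%), beside 8.47% of the peaks on the other autosomes (odds ratio 0.98, 0.71 to 1.34). Of the 46, 45 had a score of exactly 3100, and they were 2819 to 9731 bp wide. At 5 kb or wider stood 21 peaks, or 3.81% (2.37 to 5.77%), beside 4.65% on the other autosomes, and 17 of the 21 were at the ceiling (81.0%, 58.1 to 94.6%), beside 73.9% of such peaks elsewhere. Wider peaks scored higher on chromosome 16 as elsewhere, with a Spearman's rho of 0.80 over its 551 peaks and 0.79 over the others. Both values come from 1 caller and 1 library, so this relation is a description only.

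Along the chromosome the peaks lay in a few crowded stretches with long, sparse or empty stretches between them. Of 89 windows of 1 Mb, counted from position 1 with peaks placed by their midpoints, 27 held no peak (30.3%), beside 27.1% of the windows of the other autosomes. Another 24 windows held 1 to 4 peaks, 19 held 5 to 9 and 11 held 10 to 19. The remaining 8 windows held 20 or more, which is 8.99% of its windows beside 2.22% on the other autosomes. These 8 windows carried 210 peaks, or 38.1% of all on the chromosome, against 13.4% in such windows elsewhere. Among the autosomes only chromosome 19 had a higher share of its peaks in such windows (46.6%), and chromosome 17 followed chromosome 16 with 26.7%. The 5 most crowded windows alone held 27.04% of the peaks of chromosome 16.

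The spread between its windows was the widest of the 22 autosomes. The variance of the window counts was 10.6 times their mean, while on the other autosomes this factor ran from 2.90 on chromosome 18 to 7.99 on chromosome 11. Chromosomes 17 and 19 hold more peaks per Mb but were more even, with factors of 6.08 and 6.93 and medians of 8 and 12.5 peaks per window against 4 on chromosome 16. Leaving out of each autosome the windows that lie whole within its longest stretch without a peak (13 windows on chromosome 16) gave a factor of 9.57 and again the highest value. The share of empty windows then was 18.4%, rank 13 of 22. With windows of 20 or more peaks taken out of every autosome, the density of chromosome 16 was 4.23 per Mb against 3.50 elsewhere, and the ratio went from 1.57 to 1.21 (1.08 to 1.35).

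**Figure D1:**
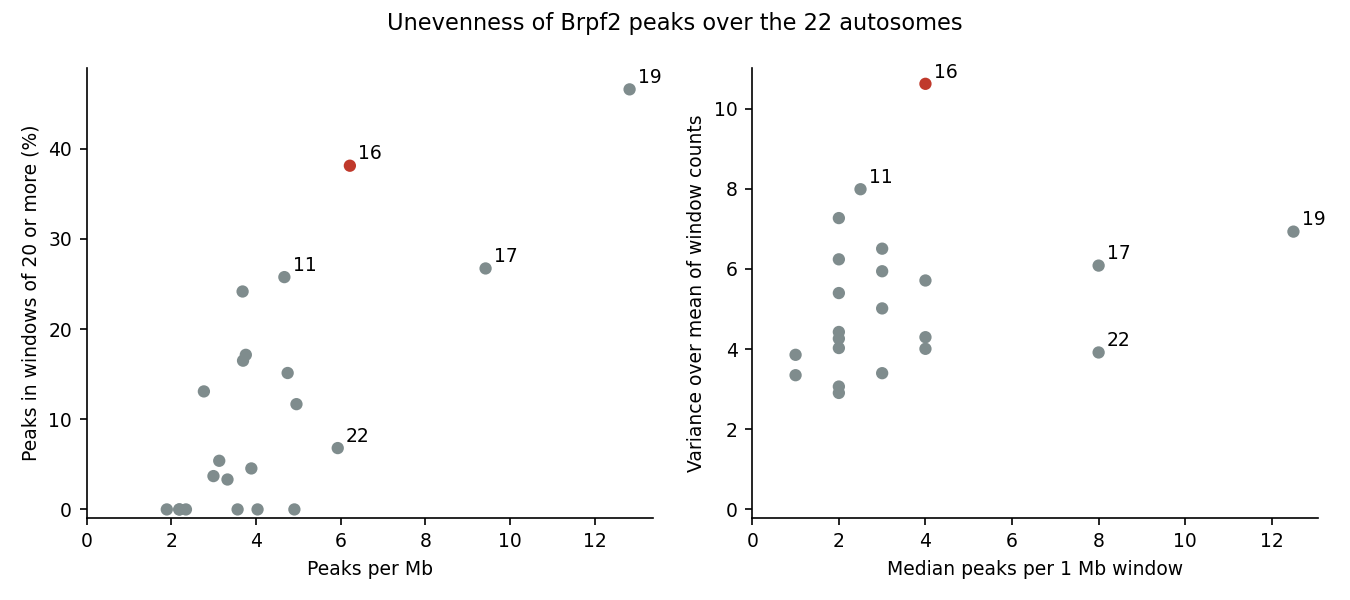
Each point is 1 autosome, chromosome 16 in red, with the share of its peaks in 1 Mb windows of 20 or more peaks against its density (left), and the variance over the mean of its window counts against its median window count (right). Chromosome 16 is second to chromosome 19 on the left axis (38.1% and 46.6%) and has the highest variance over mean on the right (10.6).

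Of the 8 crowded windows, 4 lay in the first 5 Mb, 1 between 28 and 32 Mb and 3 on the long arm. The first 5 Mb held 128 peaks, the 4 Mb from 28 to 32 Mb held 85, and the long arm from 45 Mb on held 246. The 23 Mb between 5 and 28 Mb held 92 peaks, and none lay between 32 and 45 Mb. The first 5 Mb and the 4 Mb from 28 to 32 Mb made up 5.64% and 4.51% of the length and carried 23.2% and 15.4% of the peaks. Without these 9 Mb, which include 5 of the 8 crowded windows, the remainder had 4.25 peaks per Mb, a ratio of 1.07 to the other autosomes taken whole (0.96 to 1.20).

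**Figure D2:**
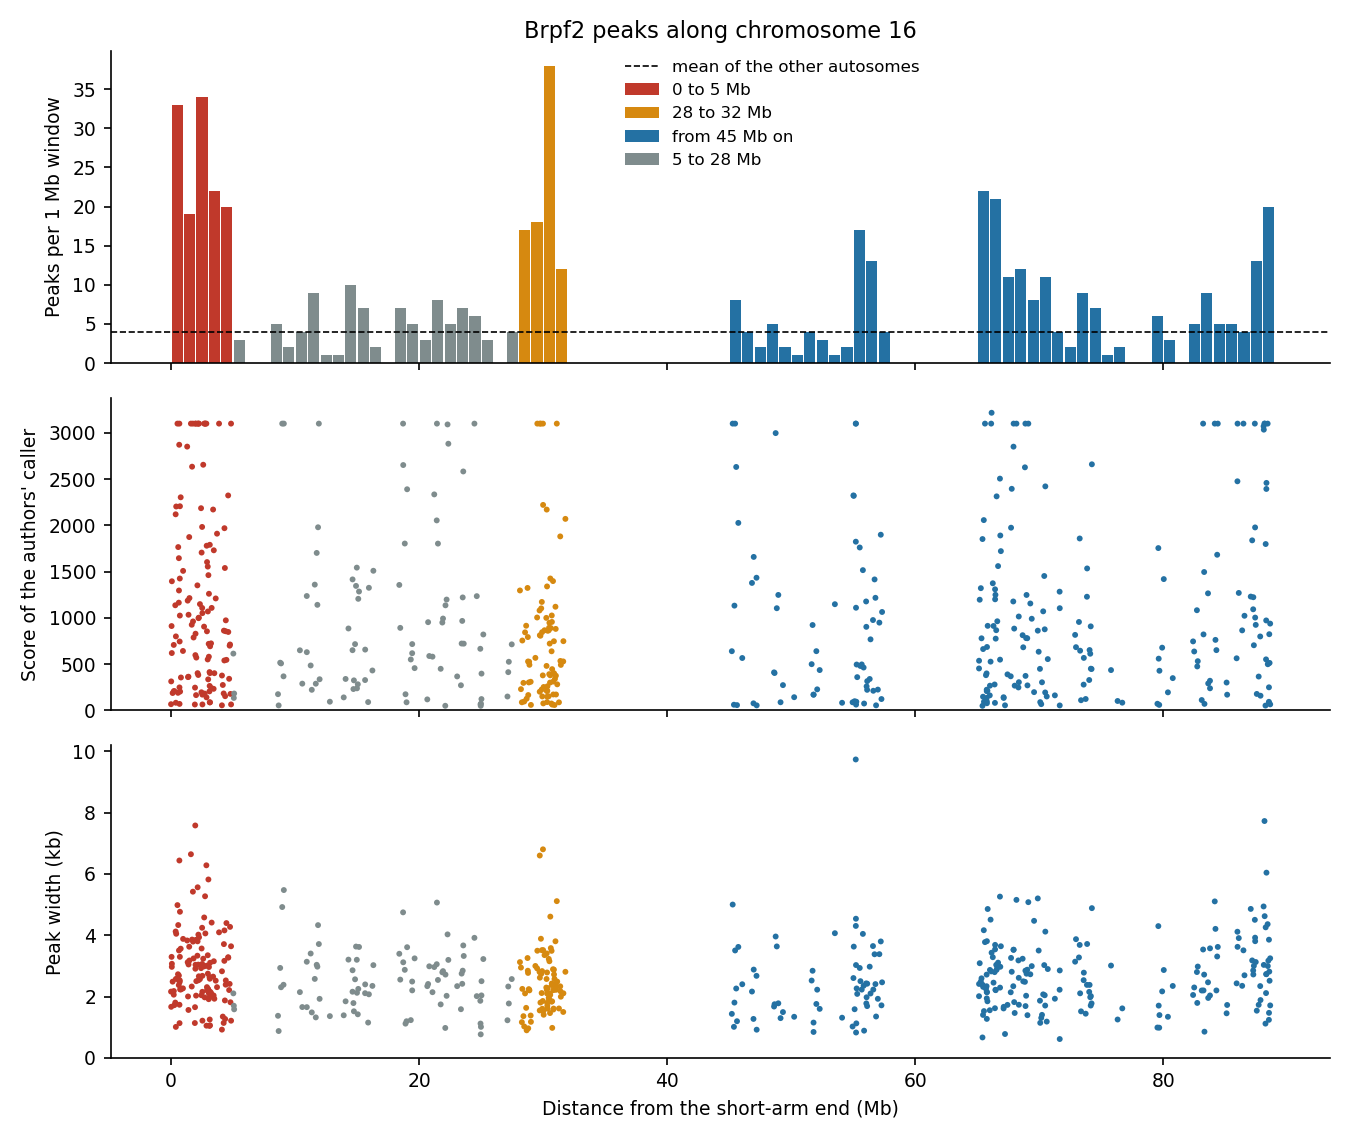
Number of Brpf2 peaks in each 1 Mb window (top), score of each peak (middle) and width of each peak in kb (bottom) by distance from the end of the short arm, with colours for the segments and a dashed line at the mean of the other autosomes (3.95 per Mb). The tallest bars are at 30 to 31 Mb (38 peaks), 2 to 3 Mb (34) and 0 to 1 Mb (33), and no peak lies from 32 to 45 Mb.

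The first 5 Mb, at the end of the short arm, held more peaks than any other block of its size on a grid over the autosomes. It had 25.6 peaks per Mb (21.4 to 30.4), 5.06 times the density of the rest of the chromosome (4.12 to 6.18), and peaks covered 7.47% of it. The rest includes the empty 13 Mb from 32 to 45 Mb, which raises this ratio. Against the long arm from 45 Mb on the ratio was 4.54 (3.64 to 5.64). Among 550 blocks of 5 Mb with a peak on the autosomes, this segment ranked first with its 128 peaks. It was just ahead of the first 5 Mb of chromosome 19 with 124, a difference within counting error. The first 5 Mb of the other autosomes that had a peak there held a median of 24.5, and 5 autosomes had none in that stretch. Relative to the density of its own chromosome, the first 5 Mb of chromosome 16 stood at 4.12 times, second to 4.58 times on chromosome 4.

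Each of the 5 windows of this segment held 19 peaks or more. The window at the tip held 33 peaks with a median score of 912, and the next held 19 with a median of 1034. From 2 to 3 Mb there were 34 peaks with a median score of 1089, and 7 of them were at the ceiling. The windows from 3 to 4 and from 4 to 5 Mb held 22 and 20 peaks with medians of 707 and 624. The next window, from 5 to 6 Mb, held 3 peaks with a median score of 183 and was followed by 3.53 Mb with no peak, from 5088099 to 8622715.

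Peaks in the first 5 Mb were also less often under 2 kb wide and lay closer together. Their median width was 2666.5 bp (2501 to 3035), an interval that overlapped those of the other segments with peaks. Of these peaks 19.5% were under 2 kb, against 31.4% on the rest of the chromosome (odds ratio 0.53, 0.31 to 0.87). Their median score was 909 (713 to 1108), the highest of the segments, though this interval overlapped that of every other segment with peaks. At the score ceiling were 15 peaks, 11.7% (6.71 to 18.6%), against 7.33% on the rest of chromosome 16, a difference that these counts do not resolve (odds ratio 1.68, 0.81 to 3.33). Of the 21 peaks of 5 kb or more on the chromosome, 8 lay here, all between 668806 and 3015363, and 7 of them were at the ceiling. The widest, from 1948988 to 1956565 (7578 bp), had a score of 3100 and 7 other peaks within 100 kb. The next widest, from 1599541 to 1606180 (6640 bp), was also at 3100 but had its nearest neighbour 61.6 kb away.

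Close neighbours were most frequent in the first 5 Mb. Over chromosome 16, 165 peaks (29.9%, 26.1 to 33.96%) had another peak within 10 kb, beside 22.7% on the other autosomes (odds ratio 1.45, 1.20 to 1.76). The share was higher on the denser chromosomes 19 (33.9%) and 17 (33.6%), so that chromosome 16 had rank 3 of 22. In the first 5 Mb, 66 of 128 peaks had such a neighbour, or 51.6% (42.6 to 60.5%). On the rest of the chromosome the share was 23.4% (odds ratio 3.47, 2.25 to 5.38). In windows of 20 or more peaks on the other autosomes it was 44.8% (42.2 to 47.3%), inside the interval of the first 5 Mb. The median distance to the next peak was 18.8 kb there and 43.0 kb over the chromosome. The longest chain of peaks with gaps of 10 kb or less had 9 peaks and ran over 74.3 kb, from 657461 to 731798. No chain on the other autosomes was longer. It began with a peak of 2523 bp scored 2871 and, 8822 bp farther, the broad peak from 668806 to 675241 (6436 bp, score 3100). Its other members were mixed, from 1131 bp with a score of 70.76 to 4764 bp with a score of 2207.

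The closest pair on the chromosome was also in this segment. A peak from 4835842 to 4839479, 3638 bp wide and scored 3100, was followed after 7 bp by a peak of 1211 bp scored 65.35. Over chromosome 16, 24 pairs of neighbours lay within 2 kb, with a median score of 995 for the higher member and 153 for the lower, and in 10 of the 24 pairs the lower member scored under 100 (41.7%). On the other autosomes the medians were 915 and 116 over 485 such pairs, and the lower member scored under 100 in 42.3% of them. The first peak of the chromosome is listed with a start before position 1 and an end at 2054. It scored 67.83, and its nearest neighbour lay 10.4 kb away.

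The segment from 28 to 32 Mb was crowded as well, without the small share of peaks under 2 kb seen in the first 5 Mb. It had 21.2 peaks per Mb (16.97 to 26.3), 3.86 times the rest of the chromosome (3.03 to 4.87). This rest, too, includes the empty stretch from 32 to 45 Mb, which raises the ratio. Against the long arm from 45 Mb on it was 3.77 (2.91 to 4.84). The density of the segment could not be told from that of the first 5 Mb (ratio of the first 5 Mb to it 1.20, 0.91 to 1.60). Among 673 blocks of 4 Mb with a peak on the autosomes it had rank 4 with 85 peaks, after the first 4 Mb of chromosomes 16 (108) and 19 (103) and the block from 64 to 68 Mb of chromosome 11 (97). The median width was 2248 bp (2101 to 2571) and the median score 530 (380 to 813). These medians were below those of the first 5 Mb, but the intervals of the 2 segments overlapped for both. The share of peaks under 2 kb, 32.9%, was above the 19.5% in the first 5 Mb (odds ratio of the first 5 Mb against it 0.50, 0.25 to 0.97). It could not be told from the 27.9% on the rest of chromosome 16 (odds ratio 1.27, 0.74 to 2.13). On the other autosomes the share was 35.8%.

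The 4 windows of this segment were unlike each other. The first held 17 peaks, none at the ceiling, with a median score of 493, while the window before it, from 27 to 28 Mb, held 4. The second, from 29 to 30 Mb, held 18 peaks with a median score of 925, and 4 of the 5 ceiling peaks of the segment. It also held its 2 widest peaks, from 29982095 to 29988894 (6800 bp) and from 29725015 to 29731612 (6598 bp). The last window, from 31 to 32 Mb, held 12 peaks with a median score of 532, and its peak from 31097843 to 31102952 (5110 bp) was at 3100.

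Between them, the window from 30 to 31 Mb held 38 peaks, second on the autosomes to a window of chromosome 19 with 39. No peak in it reached the ceiling and none was 5 kb wide. The highest score was 2171, for a peak from 30286171 to 30289574 (3404 bp), followed by 1426 for a peak from 30575879 to 30580484 (4606 bp) and 1398 for a peak from 30792979 to 30795867 (2889 bp). The lowest was 58.99, from 30914902 to 30917474 (2573 bp). Among the 10 autosomal windows with 30 or more peaks, this was the one with no peak at the ceiling. Of the 60 windows with 20 or more peaks on the other autosomes, 9 had none at the ceiling. Its median score of 424 was within the range of those windows, 246 to 2000 with a median of 581.

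**Figure D3:**
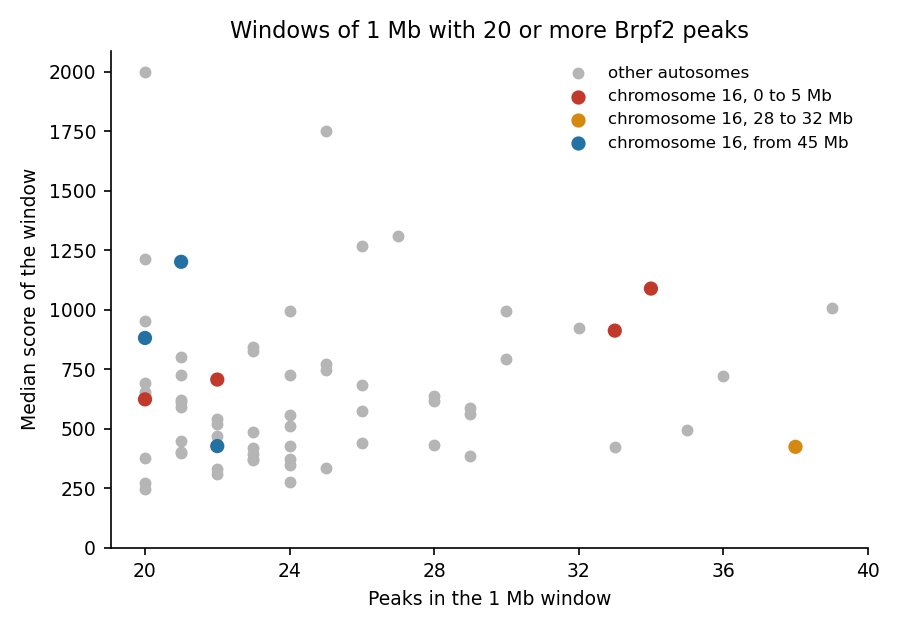
Each point is a 1 Mb window with 20 or more Brpf2 peaks, with its number of peaks (horizontal) and their median score (vertical), grey for the other autosomes and coloured by segment for chromosome 16. The window of 38 peaks from 30 to 31 Mb has a median score of 424, while the windows of 34 and 33 peaks in the first 5 Mb have 1089 and 912.

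Close neighbours were fewer from 28 to 32 Mb than in the first 5 Mb. A neighbour within 10 kb was found for 27 of its 85 peaks, or 31.8% (22.1 to 42.8%), a smaller share than in the first 5 Mb (odds ratio of the first 5 Mb against it 2.28, 1.24 to 4.24). The median distance to the next peak was 20.5 kb, and the lower quartile was 11.3 kb against 7.49 kb in the first 5 Mb. The longest chain of close peaks held 5, from 30312864 to 30349229, and began with a score of 1340, its highest. The 4 others scored from 90.53 to 261.54. In bins of 100 kb, 32 of the 40 bins of this segment held a peak and none more than 6, while 40 of 50 did in the first 5 Mb, with up to 8.

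At like width, the intervals of the segments' median scores overlapped, though they are wide where peaks are few. Among peaks of 2 to 3 kb the median score was 708 (551 to 926) in the first 5 Mb, 646 (402 to 844) from 28 to 32 Mb and 780 (652 to 964) from 45 Mb on, with 722 (705 to 741) on the other autosomes. Among peaks under 2 kb it was 184, 207 and 163, and 191 elsewhere. For widths of 3 to 5 kb the medians were 1631 (1108 to 2120), 1235 (867 to 2221) and 1535 (1197 to 1899), and 1744 (1682 to 1806) elsewhere. Only 14 peaks of 28 to 32 Mb were of this width. The window from 30 to 31 Mb had lower medians for wider peaks, 481 (342 to 957) for its 17 peaks of 2 to 3 kb and 919 (640 to 2171) for its 8 peaks of 3 to 5 kb. For its 13 peaks under 2 kb the median, 212 (76.5 to 401), was above those of the segments. All of these intervals overlapped those of the segments. The segments also differed in their mix of widths, with peaks of 3 to 5 kb making up 35.9% of the first 5 Mb, 16.5% of 28 to 32 Mb and 28.05% of the long arm, against 22.9% on the other autosomes.

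**Figure D4:**
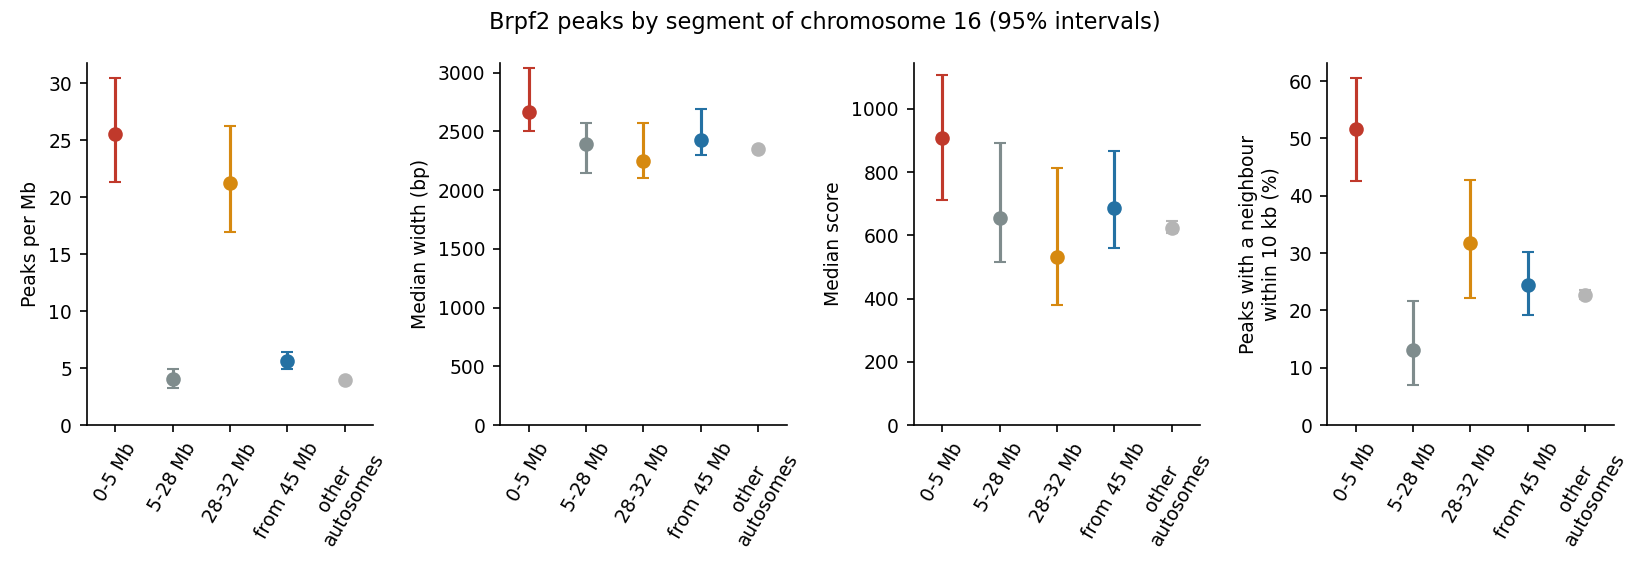
Peaks per Mb, median width in bp, median score and percentage of peaks with a neighbour within 10 kb, in 4 segments of chromosome 16 and on the other autosomes, with bars for 95% intervals. The first 5 Mb and 28 to 32 Mb stand apart in density (25.6 and 21.2 per Mb), and the share with close neighbours is 51.6% in the first 5 Mb and 31.8% from 28 to 32 Mb.

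The middle of the short arm, from 5 to 28 Mb, was sparser than the crowded segments on either side. It had 4 peaks per Mb (3.22 to 4.91), near the 3.95 of the other autosomes. Its 92 peaks had a median width of 2389 bp (2143 to 2574) and a median score of 655 (516 to 893). Only 12 of them, 13.0% (6.93 to 21.7%), had a neighbour within 10 kb. The fullest window there, from 14 to 15 Mb, held 10 peaks. Both of its peaks of 5 kb or more were at the ceiling, from 9091290 to 9096761 and from 21435107 to 21440170.

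Between the arms lay the longest stretch without a peak, 13.4 Mb from 31794981 to 45211812 (rank 3 when the longest stretch of each of the 22 autosomes is compared). It was bounded by a peak of 2806 bp scored 2071 on the short-arm side and one of 1434 bp scored 640 on the long arm. How much of this stretch can be aligned to was not tested.

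The long arm from 45 Mb on held peaks in islands. It had 5.64 peaks per Mb (4.96 to 6.39), 0.83 times the rest of the chromosome (0.70 to 0.99), and was above the 4 per Mb of 5 to 28 Mb (ratio of the latter to it 0.71, 0.55 to 0.90). Among peaks of at least the list's median score, the ratio of the long arm to the rest was 0.80 (0.64 to 1.01). That interval included 1. The rest includes the empty 13 Mb from 32 to 45 Mb, and without these the ratio over all peaks was 0.59 (0.50 to 0.70). The median width was 2428 bp (2295 to 2692) and the median score 685 (560 to 866), and 20 peaks, 8.13% (5.04 to 12.3%), were at the ceiling. These values were near those of the chromosome as a whole. A neighbour within 10 kb was found for 24.4% (19.2 to 30.3%).

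Chosen after the windows had been seen, 3 islands held 148 of the 246 long-arm peaks in 9.62 Mb. From 55 to 57 Mb there were 30 peaks, from 65 to 71 Mb there were 85, and from 87 Mb to the last peak there were 33. The other 34 Mb of the arm had 2.88 peaks per Mb (2.34 to 3.51). At the start of the arm, the window from 45 to 46 Mb held 8 peaks with a median score of 1580, 2 of them at the ceiling, and the 9 windows after it held 1 to 5 peaks each.

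The island from 55 to 57 Mb held the widest peak of the chromosome, from 55197230 to 55206960 (9731 bp, score 3100). It opened a chain of 5 peaks that ended at 55228124. The second, 42 bp after the first, was 4302 bp wide with a score of 1824, and the one after it, from 55214738 to 55219274, was at 3100 as well. The last 2 were 3026 bp with a score of 1110 and 826 bp with a score of 63.33. Peaks covered 22422 bp of this chain, whose span was 30.9 kb. The 17 peaks of the island's first window, those of the chain included, had a median score of 498, and the 13 of its second had 340.

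After 57 Mb the peaks broke off for 7.81 Mb, from 57326389 to 65140347. Taking the second longest such stretch of each autosome, those of chromosomes 13 and 4 were longer, with 9.63 and 9.15 Mb. The peaks at its edges were 2463 bp wide with a score of 1064 and 2010 bp wide with a score of 454. Beyond it, the window from 65 to 66 Mb held 22 peaks with a median score of 427, and the next 21 with a median of 1201, so that neighbouring windows of like count differed in score. The first of them held a chain of 7 peaks from 65750359 to 65785264, with scores from 78.14 to 686. The peak with the lowest score of the chain was 3804 bp wide. The second held the highest score of the chromosome, 3217.15, for a peak from 66152958 to 66156386. This peak was 3429 bp wide and its nearest neighbour was 30.6 kb away. As the score has a ceiling, a value above 3100 need not mark a stronger peak.

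From 71 to 87 Mb the arm was sparse again. No window there held more than 9 peaks, 3 held none, and a stretch of 2.83 Mb from 76692164 to 79523203 had no peak. The window from 84 to 85 Mb held 5 peaks with a median score of 1683, 2 of them at the ceiling. The narrowest peak of the chromosome, 613 bp from 71647469 to 71648081, lay here with a score of 54.52, and a wider neighbour 408 bp away. The end of the long arm was crowded, with 13 peaks from 87 to 88 Mb and 20 from 88 Mb on. The median width over both was 3001 bp (2718 to 3804) and the median score 939 (514 to 1799). Of the 33 peaks, 14 had a neighbour within 10 kb. The widest, from 88152983 to 88160705 (7723 bp), was at 3100. The last 5 Mb of the chromosome held 50 peaks, 1.61 times its own mean density, where the first 5 Mb stood at 4.12 times. Among the last 5 Mb of the 22 autosomes it had rank 7, and chromosome 17 had the most with 83.

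Few peaks of chromosome 16 stood alone. With no other peak within 500 kb there were 5, or 0.907%, against 2.65% on the other autosomes. All 5 lay outside the first 5 Mb, 28 to 32 Mb and the 3 islands of the long arm. This follows largely from the definition, because those stretches are crowded. Of the 5 peaks, 3 were 1309 to 1360 bp wide and scored from 83.19 to 143.41. The most isolated, from 50237004 to 50238342, was 902 kb from its neighbour. The other 2 were the peak from 53518299 to 53522363, 4065 bp wide with a score of 1148, and the one from 75781291 to 75784299, 3009 bp wide with a score of 436.5. The 291 isolated peaks of the other autosomes had a median width of 2229 bp and a median score of 589. Peaks under 1 kb numbered 17, or 3.09%, against 4.07% elsewhere, and 10 of them were on the long arm and 1 in the first 5 Mb.

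Over the windows of chromosome 16 with 3 or more peaks, the count and the median score had a Spearman's rho of 0.18 (50 windows), and the count and the median width one of 0.29. Over 1366 such windows on the other autosomes these were −0.09 and 0.01. The windows share 1 library and the caller's settings, and these weak relations are given as descriptions.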

How the data were processed

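The deposited peak list of the Brpf2 sample gives chromosome, start, end, name and a score for each peak. The deposited score is the value that the authors' caller gave each peak. Its scale is not stated, and it was used only to rank, filter and compare peaks within the list. Peak names carry the name MACS, and the submitters' processing notes list hg18, BWA, SAMtools and bedtools, with no versions. How the caller was run, and against which control, is not given in the sources used here. Read depth is unknown, so no peak has a counting interval. The other 5 samples were not analysed here.

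Positions are in hg18, counted from 1. No peaks overlapped (0 pairs). Chromosome length is the end of the last peak, and windows run from the first to the last peak. Protein-coding genes per chromosome came from RefSeq (GRCh38.p14), with no positions. Densities have exact Poisson 95% intervals, ratios exact conditional ones, shares Clopper-Pearson ones, odds ratios conditional ones, and medians order-statistic ones (Python 3.11.15, pandas 2.3.3, scipy 1.17.1). The code was tested on simulated data. The chromosome, its segments and the comparisons were chosen with earlier results of these data known. Named peaks are the 5 highest scores, 5 widest and 3 narrowest, the highest and widest of each segment, the 5 fullest windows, the 3 longest stretches between peaks, the closest pair and any start before position 1. Other named peaks, chains, islands and isolated peaks were chosen after their values were seen. Alternatives were a score minimum, joined peaks, widened segments, segments without their fullest window, and other lengths, chromosomes and neighbour distances.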

Additional observations from a re-analysis of the deposited data

How the results depend on the processing

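Of 51 alternatives to 14 results, 39 stayed within the interval of the reported value, 12 left it and no ratio crossed 1. The ratio of chromosome 16 to the other autosomes, 1.57 as reported, was 1.73 for peaks whose score is at least the list's median and 1.74 without chromosomes 17 and 19. The ratio of 28 to 32 Mb to the rest, 3.86 as reported, was 2.65 with the segment widened by 1 Mb on each side and 2.84 without its window of 38 peaks. That of the long arm was 0.59 with 32 to 45 Mb left out of the rest, an alternative chosen after seeing the data, and for peaks of at least the median score its interval included 1 (0.80, 0.64 to 1.01). Without the same window the share at the ceiling from 28 to 32 Mb was 10.6% in place of 5.88%. Peaks of at least the median score were wider, with medians of 3233 bp in the first 5 Mb, 2858.5 bp from 28 to 32 Mb and 3025 bp on the long arm. The share with a close neighbour, 29.9% within 10 kb, was 20.3% among those peaks, 25.8% with peaks within 1 kb joined, 8.71% within 2 kb and 72.2% within 50 kb. The shares with other neighbour distances follow from the distance, and the causes of the other shifts were not tested. No paired analysis was possible because each target has 1 sample. Depth is unknown, so how many weaker peaks a deeper library would add to the sparse stretches cannot be estimated.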
